A study of Rattus norvegicus with 4 samples.

Results

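Lymphatic endothelial markers were read in RNA of rat vessels on 1-colour Agilent arrays. The set holds 7 genes, Prox1, Flt4, Lyve1, Reln, Pdpn, Ccl21 and Mmrn1, chosen by name as genes that mark the cells lining lymphatic vessels. Probe accessions matched 6 of the 7 members, through 10 of 45594 probes. No probe was matched to Mmrn1, so this secreted adhesion protein is not analysed here. All 6 matched members, like 9966 of 16581 named genes, were well above background on 1 or more of the arrays.

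Each of 4 groups had 1 array. KO Ang II vessels came from male rats with a PKCbeta deletion and were treated for 24 h with angiotensin II, a peptide hormone that constricts vessels. KO control vessels came from the same kind of rat without that treatment. WT Ang II vessels came from male Wistar rats and were treated for 24 h with angiotensin II, and WT control vessels came from male Wistar rats without it. The design text names 4 rats of each genotype. It does not state which vessel was taken, which cells lost the kinase, or if an array carried pooled RNA. With 1 array per group no difference between single arrays has a p-value or a replicate check. All 4 arrays shared 1 slide and scan, and group cannot be told apart from position on the slide. Prkcb, the deleted gene, had a processed signal of 1.89 in KO Ang II and 1.94 in KO control, neither well above background, against 18.0 in WT Ang II and 14.8 in WT control, on its brighter probe. The labels do not say if that probe lies in the deleted part.

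Lymphatic vessels return fluid and immune cells from tissue to the blood, and larger blood vessels carry lymphatics in their outer coat and surrounding fat. Prox1 is the transcription factor that sets and keeps lymphatic identity, and Flt4 is the receptor for the growth factor VEGF-C, which drives lymphatic growth. Lyve1 is a receptor for hyaluronan, Ccl21 is a chemokine that guides dendritic cells and lymphocytes into lymphatics through the receptor Ccr7, Reln is a secreted matrix glycoprotein, and Pdpn is a membrane mucin that binds Clec1b on platelets. None of these genes belongs to lymphatic endothelium alone: Lyve1 is also made by some tissue macrophages, and Pdpn by fibroblasts and mesothelium.

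The 6 members did not share 1 pattern over the 4 arrays. Lyve1, Reln and Ccl21 were read well above background in WT vessels only, and each had its highest signal in WT control. Prox1 was bright on every array, with lower signals in both KO arrays. Pdpn was bright on every array with small and mixed differences, and the Flt4 probes were near the detection limit and disagreed. By any probe of a gene, members well above background numbered 2 of 6 in KO Ang II, 3 of 6 in KO control, 5 of 6 in WT Ang II and 6 of 6 in WT control. Over all named genes the shares were 54.6%, 54.0%, 57.4% and 57.0% in that order. Flt4 counted in WT control only through the probe not used in the counts and fit below. Without that probe the count there was 5 of 6. In RNA of whole vessels, fewer cells of a type and less RNA per cell cannot be told apart.

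**Figure D1:**
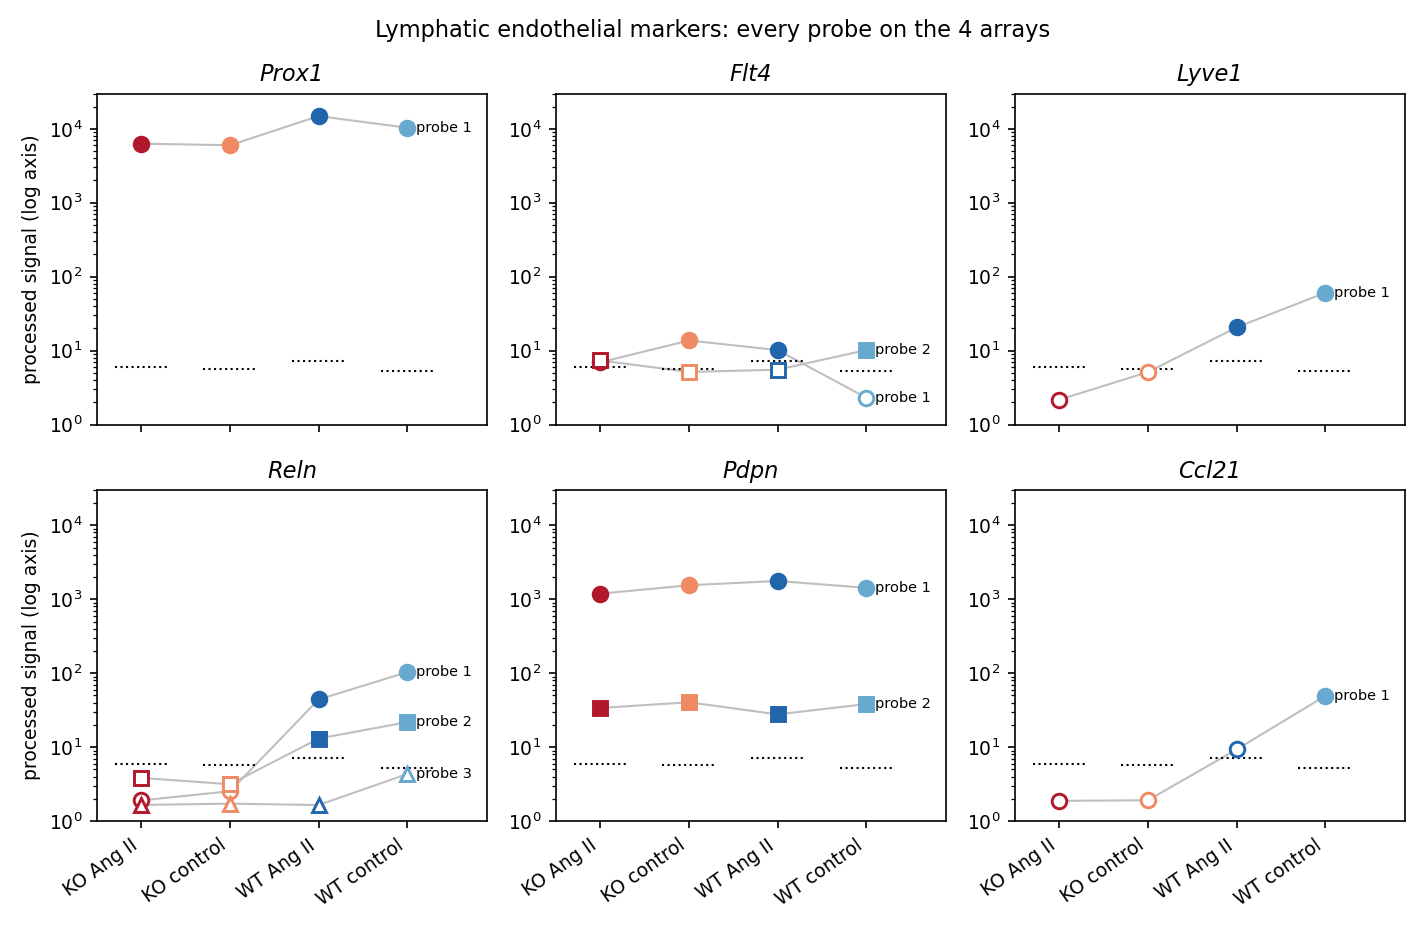
Processed signal (arbitrary brightness units, log axis) of every probe of the 6 members on the 4 arrays, with filled symbols for probes well above background, open symbols for the others, and a dotted line at the lowest signal well above background on that array. Lyve1, Reln and Ccl21 are open in both KO groups and highest in WT control, at 60.5, 103.4 and 49.1, while Prox1 and Pdpn are filled on all 4 arrays.

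The processed signal is the scanner's spot brightness after background subtraction, and a probe was taken as measured where the software marked it well above background. For ratios, log2 signals were set relative to the 75th percentile of each array, which was 52.1 in KO Ang II, 47.3 in KO control, 62.4 in WT Ang II and 58.7 in WT control. Where 1 side of a ratio was not well above background it was raised to the lowest scaled level well above background on that array, if below it, and such a ratio is a bound, given as "at least". That lowest level was a signal of 5.93 in KO Ang II, 5.67 in KO control, 7.14 in WT Ang II and 5.30 in WT control. It is not a detection limit of each probe, and some dim values lay above it and were used as read. Ccl21 in WT Ang II (9.31) and the first Flt4 probe in KO Ang II (6.95) are such values. Their ratios are not strict limits, and the true fold could be smaller. The other bounds rest on a lowest level that is not each probe's own limit, so they are not guaranteed minima either.

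Prox1, the identity factor, was read by 1 probe (A_64_P164271) with 10 replicate spots. Its processed signal was 6293 in KO Ang II, 5991 in KO control, 14848 in WT Ang II and 10335 in WT control. That was above Myh11, a smooth muscle gene, with 5625, 4399, 4263 and 4312 in that order. Flt4, Lyve1, Reln and Ccl21 were far dimmer on every array. Whether this 1 probe reads Prox1 alone was not tested. The lowest, median and highest spot were 5902, 6281 and 6641 in KO Ang II, 5577, 5999 and 6349 in KO control, 13919, 14896 and 15606 in WT Ang II, and 9516, 10424 and 10714 in WT control. The spots of the KO arrays thus overlapped each other and lay below all spots of the WT arrays, while those of WT Ang II lay above all spots of WT control. After scaling, the log2 level was 6.92 in KO Ang II, 6.98 in KO control, 7.89 in WT Ang II and 7.46 in WT control. Prox1 was 1.97-fold lower in KO Ang II than in WT Ang II (log2 ratio -0.98) and 1.39-fold lower in KO control than in WT control (-0.48). With Ang II it stood at 0.43 in WT and at -0.07 in KO, a difference of responses, KO minus WT, of -0.50. A difference of responses at least 2-fold lower was found for 2.87% of 8600 genes measured on all 4 arrays, and at least 2-fold higher for 1.27%. The SD over replicate spots, 0.0494 to 0.0631 on the log2 scale, is technical precision within 1 array and holds none of the spread between rats.

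**Figure D2:**
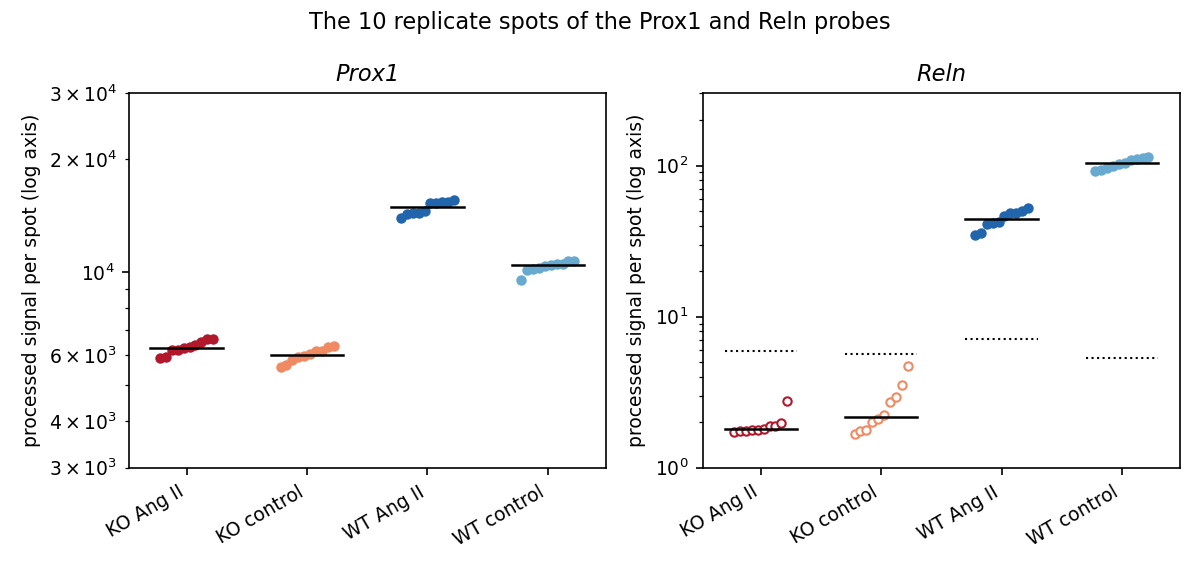
Processed signal of each of the 10 replicate spots (log axis) of the Prox1 probe and of the brightest Reln probe on each array, sorted within the array, with the median as a bar, open circles where the probe was not well above background, and dotted lines at the lowest signal well above background. The spots are repeats of 1 RNA on 1 array: Prox1 spots reach 6641 at most on the KO arrays and start at 9516 on the WT arrays, and Reln spots reach 4.68 at most on the KO arrays and start at 34.6 on the WT arrays.

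Flt4, the VEGF-C receptor, was read by 2 probes with 1 spot each. The first (A_64_P109023) had 6.95 in KO Ang II, 13.7 in KO control, 10.2 in WT Ang II and 2.32 in WT control, and was well above background in KO control and WT Ang II. The second (A_64_P140701) had 7.36 in KO Ang II, 5.15 in KO control, 5.52 in WT Ang II and 10.2 in WT control, and was well above background in WT control alone. For KO control against WT control the first probe was at least 3.21-fold higher and the second at least 1.44-fold lower, so the direction depended on the probe. The same held for Ang II in WT, with the first probe at least 1.80-fold higher and the second at least 1.51-fold lower. The software's own error of these spots was 1.73 to 2.27 signal units. Because the probes disagreed, no direction is given for Flt4 as a gene, and the counts and fit below use its first probe alone.

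Lyve1, the hyaluronan receptor, was read by 1 probe (A_44_P588315) with 1 spot. Its signal was 2.17 in KO Ang II, 5.13 in KO control, 20.6 in WT Ang II and 60.5 in WT control, with a software error of 1.71, 1.83, 2.66 and 6.28 in that order. It was well above background on the WT arrays alone. Lyve1 was at least 8.60-fold lower in KO control than in WT control and at least 2.90-fold lower in KO Ang II than in WT Ang II. In WT vessels it was 3.12-fold lower with Ang II than without, measured on both arrays. In KO vessels both arrays were dim, so its Ang II response there has no value and the responses of the genotypes cannot be compared.

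Reln was read by 3 probes. The brightest (A_44_P1086490), with 10 replicate spots, had 1.91 in KO Ang II, 2.54 in KO control, 44.1 in WT Ang II and 103.4 in WT control. All 10 spots were well above background on each WT array, and no spot was on either KO array. The highest spot was 2.75 in KO Ang II and 4.68 in KO control, whereas the lowest was 34.6 in WT Ang II and 91.5 in WT control. Reln was at least 14.7-fold lower in KO control than in WT control and at least 6.21-fold lower in KO Ang II than in WT Ang II. In WT vessels it was 2.49-fold lower with Ang II than without, and the 10 spots of those arrays did not overlap.

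The second Reln probe (A_44_P1104438), with 2 spots, had the same order of genotypes. It gave 3.84 in KO Ang II and 3.15 in KO control, against 13.1 in WT Ang II and 21.8 in WT control, and was well above background in WT alone. Its log2 bound was -1.63 for KO control against WT control and -0.88 for KO Ang II against WT Ang II, and it stood at -0.83 for Ang II in WT. The third probe (A_64_P107908) was not well above background on any array, with 1.66 in KO Ang II, 1.72 in KO control, 1.65 in WT Ang II and 4.32 in WT control.

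Ccl21, the chemokine, was read by 1 probe (A_44_P178252) with 1 spot. Its signal was 1.88 in KO Ang II, 1.91 in KO control, 9.31 in WT Ang II and 49.1 in WT control, and it was well above background in WT control alone. Ccl21 was at least 6.98-fold lower in KO control than in WT control. In WT vessels it was 5.61-fold lower with Ang II than without, with the dim WT Ang II value as read. Between KO Ang II and WT Ang II both sides were dim and no fold is given. The Ccl21 results rest on a single bright spot, whose software error was 5.32.

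Lyve1, Reln and Ccl21 had the same order of WT arrays and were dim on both KO arrays. Their upstream sequences are shown because these members moved together. Each is the stretch before the transcript start in RefSeq's GRCr8 assembly, 250 bases long, read 5′ to 3′ on the gene's strand. Capitals mark any match, on either strand, to the ETS core GGAA, the GATA motif GATAA, the SOX motif ACAAT or the nuclear receptor motif AGGTCA, which are the letters bound by factor families active in lymphatic endothelium. Matches that touch run together as 1 block of capitals.
Lyve1 (chr1:174410978-174411227, minus strand): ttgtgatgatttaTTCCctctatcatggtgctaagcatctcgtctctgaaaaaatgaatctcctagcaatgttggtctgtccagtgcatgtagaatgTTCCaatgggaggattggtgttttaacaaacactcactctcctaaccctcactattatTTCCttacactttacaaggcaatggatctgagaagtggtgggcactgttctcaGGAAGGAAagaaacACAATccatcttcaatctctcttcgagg
Reln (chr4:13628318-13628567, plus strand): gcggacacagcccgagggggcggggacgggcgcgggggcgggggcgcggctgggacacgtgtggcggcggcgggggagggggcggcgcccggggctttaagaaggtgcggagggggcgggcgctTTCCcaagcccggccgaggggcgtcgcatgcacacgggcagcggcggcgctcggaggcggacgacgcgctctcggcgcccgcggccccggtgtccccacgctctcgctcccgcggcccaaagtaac
Ccl21 (chr5:61777516-61777765, minus strand): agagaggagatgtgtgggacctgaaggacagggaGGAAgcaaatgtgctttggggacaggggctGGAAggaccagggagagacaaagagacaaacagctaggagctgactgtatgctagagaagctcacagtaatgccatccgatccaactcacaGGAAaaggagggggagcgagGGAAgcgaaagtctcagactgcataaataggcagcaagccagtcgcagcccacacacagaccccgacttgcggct

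The ETS core was found 5 times upstream of Lyve1, 1 time upstream of Reln and 4 times upstream of Ccl21, and 93.2% of 33469 windows of that length in the table hold it. The SOX letters occurred 1 time, upstream of Lyve1, and are held by 30.02% of windows. Neither the GATA letters, in 23.5% of windows, nor the nuclear receptor letters, in 14.1%, occurred in these 3 windows. The windows differed in base composition, with 41.6% G and C for Lyve1, 80.0% for Reln and 54.8% for Ccl21, against a median of 51.2%. A match describes letters in the window and does not show that a factor binds there.

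Pdpn, the membrane mucin, was read by 2 probes, both well above background on all 4 arrays. The brighter (A_44_P1082798), with 2 spots, had 1191 in KO Ang II, 1547 in KO control, 1768 in WT Ang II and 1427 in WT control. The dimmer (A_64_P157371), with 1 spot, had 33.9 in KO Ang II, 40.5 in KO control, 27.7 in WT Ang II and 38.3 in WT control. The probes gave like log2 ratios for KO control against WT control (0.43 and 0.39) and for Ang II in KO (-0.52 and -0.40). They had opposite signs for KO Ang II against WT Ang II (-0.31 and 0.55) and for Ang II in WT (0.22 and -0.55). No Pdpn ratio reached 2-fold on either probe. The difference of responses, KO minus WT, was -0.74 on the brighter probe and 0.16 on the dimmer one, so its sign depended on the probe.

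**Figure D3:**
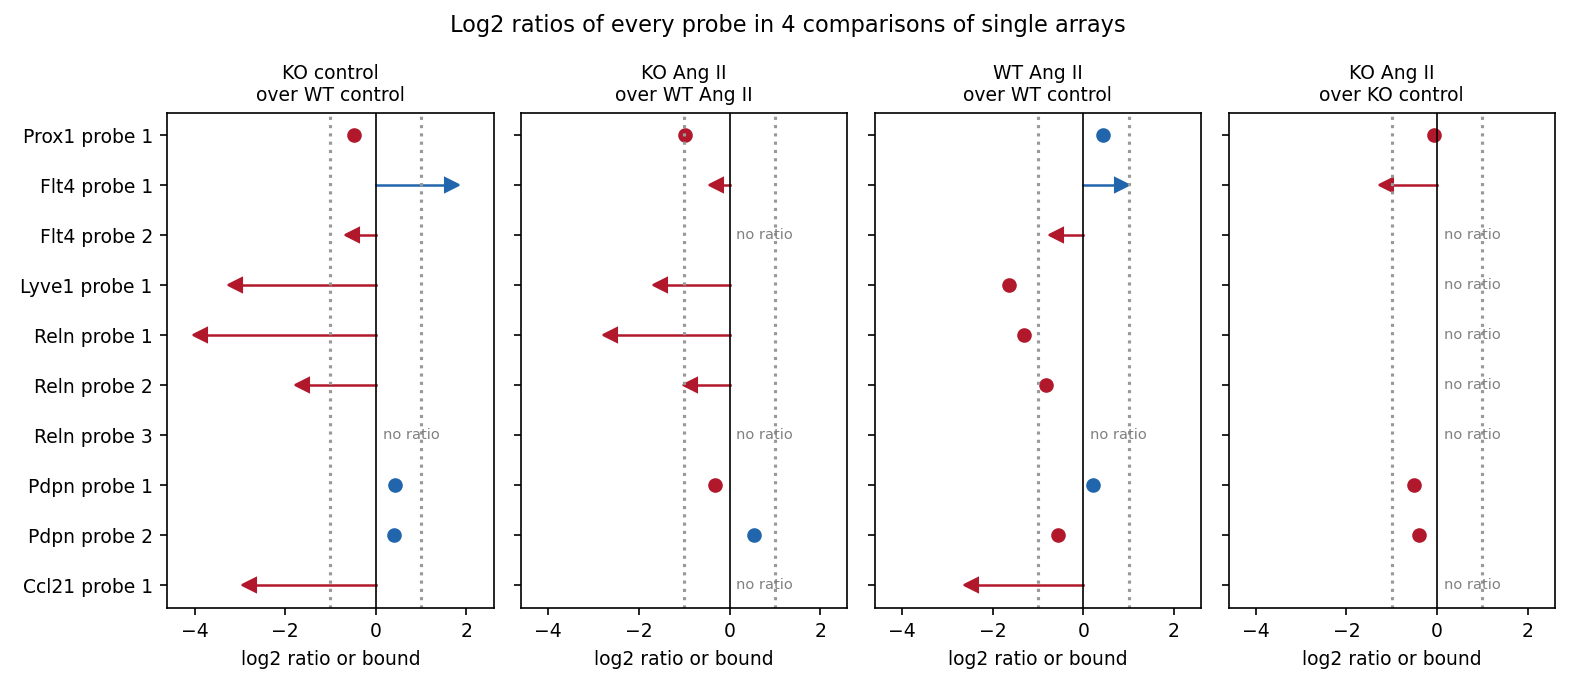
Log2 ratios of the 10 probes in the 4 comparisons of single arrays, with circles where both arrays were well above background, arrows from 0 to the bound where 1 was dim, "no ratio" where both were dim, and dotted lines at 2-fold. The longest arrows are those of Reln (-3.88), Lyve1 (-3.10) and Ccl21 (-2.80) for KO control over WT control, while the Flt4 probes point opposite ways.

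By a size of 2-fold, 3 of 6 members (Lyve1, Reln, Ccl21) were lower in KO control than in WT control, where 4.06% of 9582 named genes were at least 2-fold lower, and Flt4 on its first probe was higher, where 2.92% were. With Ang II, 2 of 5 members with a value (Lyve1, Reln) were at least 2-fold lower in KO, where 5.21% of 9644 genes were, and no member was at least 2-fold higher, where 1.95% were. For Ang II in WT, 3 of 6 members (Lyve1, Reln, Ccl21) were at least 2-fold lower, where 0.999% of 9812 genes were, and no member was at least 2-fold higher, where 2.02% were. For Ang II in KO only 3 members had a value. Flt4 on its first probe was 2.18-fold lower there, with the dim KO Ang II value as read. Of 9264 genes, 1.4% were at least 2-fold lower in that comparison and 0.443% higher. The median log2 value of the members was -1.64 for KO control against WT control, against 0.01 over all genes. It was -0.98 for KO Ang II against WT Ang II, against -0.04, and -0.55 for Ang II in WT, against 0.04. These medians include bounds, and a member dim on the KO arrays could come out only as lower. With normexp background correction, which shrinks the ratios of dim probes, Reln alone was at least 2-fold lower without Ang II, Prox1 alone with it, and no member passed 2-fold for Ang II in either genotype. The comparisons share arrays: WT control enters both the genotype comparison without Ang II and the Ang II comparison in WT, so their counts are not independent. Being well above background on both WT arrays and on neither KO array held for Lyve1 and Reln, and for 2.29% of 9966 named genes, and the opposite pattern held for no member and 0.251% of genes.

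The only test these 4 arrays allow is an additive fit of genotype and treatment with limma, which takes the difference of responses as error. The 9387 genes measured on 2 or more arrays entered it, and p-values were adjusted over all of them (Benjamini-Hochberg). No gene passed an adjusted p of 0.05 for either term (percent called 0), while 15.3% of genes were lower and 10.9% higher in KO at an unadjusted p under 0.05. For Ang II those shares were 1.8% lower and 2.03% higher. The genotype term of Reln was -4.65 ± 0.24 (SE, adjusted p = 0.0709, limma), that of Lyve1 -3.12 ± 0.16 (adjusted p = 0.0709), that of Prox1 -0.73 ± 0.19 (adjusted p = 0.138), that of Flt4 1.29 ± 0.79 (adjusted p = 0.36) and that of Pdpn 0.06 ± 0.24 (adjusted p = 0.891). Lyve1 and Reln entered the fit through the WT arrays alone, with dim KO values as read, so their terms are not measured sizes. Ccl21, well above background on 1 array, did not enter. On the authors' deposited log2 values the same fit gave Reln and Lyve1 an adjusted p of 0.0497 each. Since their KO values were dim, neither p is read as a test of these genes. Of the members measured on all 4 arrays, Prox1 was lower on both KO arrays than on both WT arrays and Pdpn was not. Over the genes in the fit that order held for 32.1%, and the opposite one for 30.9%. The Ang II term had an adjusted p of 0.99996 for each of the 5 members (limma).

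The genes nearest in pattern were sought among genes measured on all 4 arrays, by the root mean square difference of log2 values, each gene centred on its own mean. For Prox1 they included Zdhhc6 (0.013) and Spag7 (0.024). For Pdpn they were Shpk (0.019), Apcdd1 (0.020) and F2r (0.023). Lyve1, Reln and Flt4 were placed with dim values as read, and genes dim on any array were not in the pool, so genes measured in WT alone could not be found. For Lyve1 the nearest were Serinc2 (0.71), Sfrp4 (0.75) and Rrm2 (0.76), and for Reln they were Ccl20 (1.14), Rrm2 (1.17) and Serinc2 (1.23). Flt4, on its first probe, was nearest to Bcar3 (0.44), Dusp13b (0.47) and Tcp11 (0.48). Likeness over 4 arrays is a description. Of the members only Prox1 and Pdpn were in the pool, so no other member could be found as a nearest gene.

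Ligands, receptors and partners of the members were read next. Of 15 genes listed, 11 had a probe and 6 were measured on some array, and each of those 6 was measured on all 4. Vegfc, the ligand of Flt4, had 310.4 in KO Ang II, 328.9 in KO control, 347.8 in WT Ang II and 379.9 in WT control. After scaling, its log2 ratio was 0.10 for KO Ang II over WT Ang II and for KO control over WT control, and -0.22 for Ang II in WT and in KO. Nrp2, its co-receptor, stood at -0.33 in KO Ang II against WT Ang II and at -0.31 in KO control against WT control. Ccl19, the other chemokine that binds Ccr7, had 1440 in KO Ang II, 1471 in KO control, 4822 in WT Ang II and 1760 in WT control. It was thus highest in WT Ang II, at 1.37 for Ang II in WT and at -1.48 in KO Ang II over WT Ang II, whereas Ccl21 was highest in WT control. Vldlr, a receptor for reelin, had 75.2 in KO Ang II, 53.2 in KO control, 173.8 in WT Ang II and 159.2 in WT control. It was lower in KO on the arrays with and without Ang II, at -0.95 and -1.27. Has1 and Has3, which make the hyaluronan that Lyve1 binds, stood at -0.78 and -0.19 in KO Ang II against WT Ang II, and at 0.29 and -0.12 in KO control against WT control. Ccr7, Clec1b, Dab1, Has2 and Vegfd had a probe that was not well above background on any array. In the fit none of the 6 measured genes passed for genotype.

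Genes of lymphatic specification and valves numbered 20, of which 18 had a probe and 12 were measured on some array. The number below 0 was 8 of 12 for KO Ang II against WT Ang II (median -0.26) and 9 of 12 for KO control against WT control (median -0.34). At least 2-fold lower were 1 and 2 of them, and none was at least 2-fold higher. Over all genes 53.8% lay below 0 with Ang II and 49.5% without, and 5.21% and 4.06% were at least 2-fold lower. Sox18 and Nr2f2, which switch Prox1 on, stood at -0.34 and -0.11 with Ang II and at -0.85 and -0.83 without. Tbx1, which acts upstream of Flt4 in mice, had 39.0 in KO Ang II, 16.4 in KO control, 75.2 in WT Ang II and 121.7 in WT control. Angpt2, a ligand of the receptor Tek, was dim on both KO arrays, with 3.997 in KO Ang II and 2.02 in KO control, against 16.0 in WT Ang II and 16.1 in WT control. Like Lyve1 and Reln it was thus measured in WT only, as a bound of -1.17 with Ang II and -1.19 without. The valve genes Foxc2, Nfatc1 and Gja4 (0.13, 0.02 and 0.41 with Ang II, and -0.21, -0.14 and 0.52 without) differed by less than 2-fold between genotypes.

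**Figure D4:**
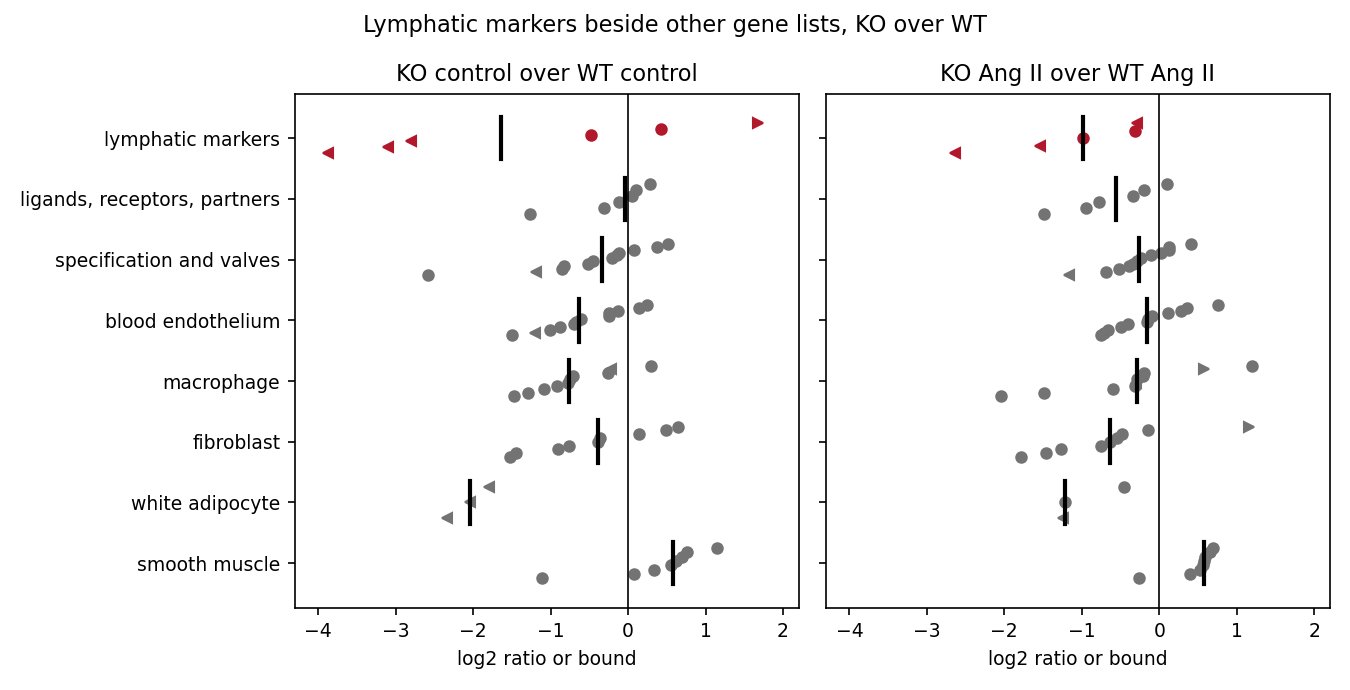
Log2 ratios of KO over WT, without Ang II on the left and with it on the right, for each measured gene of the lymphatic markers (red) and of 7 other lists (grey), with circles for genes measured on both arrays, arrowheads for bounds and a black bar at the list's median. The lymphatic markers spread from -3.88 to 1.68 without Ang II, wider than the smooth muscle list, whose median was 0.58.

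Markers of other cells in the vessel wall and its surroundings are given here beside the members, and their part in the results above was not tested. Of 13 macrophage genes listed, 12 had a probe and 10 were measured on some array, and Mrc1 and Marco were not well above background on any. Their summed scaled signal was 30.7 in KO Ang II, 25.7 in KO control, 46.0 in WT Ang II and 45.1 in WT control. For KO Ang II against WT Ang II, 8 of 10 lay below 0 (median -0.29), with 2 at least 2-fold lower and 1, Cd74 at 1.19, at least 2-fold higher. For KO control against WT control, 9 of 10 lay below 0 (median -0.77), with 3 at least 2-fold lower and none at least 2-fold higher. Over all genes 53.8% lay below 0 with Ang II and 49.5% without. At least 2-fold lower were 5.21% and 4.06% of all genes, and at least 2-fold higher 1.95% and 2.92%. C1qb, a complement subunit, stood at -0.31 with Ang II and at -1.09 without, and Cd14, a receptor for bacterial lipopolysaccharide, at -1.49 and -0.91. The other bright genes of the list moved less, with C1qa at -0.21 with Ang II and -0.71 without, and Cd68 at -0.19 and -0.26. Adgre1 was at least 2-fold lower in both comparisons, at -2.04 with Ang II and at -1.47 without. Cd163, a haemoglobin scavenger receptor, had 8.45 in KO Ang II, where it was dim, 12.09 in KO control, 12.4 in WT Ang II and 36.8 in WT control. It was thus highest in WT control, as Lyve1 was, and stood at -1.66 for Ang II in WT. The list as a whole did not share that fall: 4 genes lay above 0 and 6 below (median -0.09). Cd163 was the 1 gene at least 2-fold lower there, where 0.999% of all genes were. Cd74, Adgre1 and Cd163 were chosen after their values were seen. Of 15 blood endothelial genes, 12 of 13 with a probe were well above background, with a summed scaled signal of 295.4 in KO Ang II, 333.8 in KO control, 256.5 in WT Ang II and 299.3 in WT control and a median log2 ratio, KO over WT, of -0.16 with Ang II and -0.64 without. Aqp1, a water channel, made up most of that sum, and without it the sum was 36.8 in KO Ang II, 34.4 in KO control, 43.1 in WT Ang II and 46.6 in WT control. Below 0 were 8 of 12 with Ang II and 10 of 12 without, to be read beside the same shares over all genes as above. Of these, 0 and 3 were at least 2-fold lower, and none of the 12 was at least 2-fold higher. The 3 were Kdr, the main VEGF receptor of blood endothelium, at -1.49 (-0.40 with Ang II), Cldn5, a tight junction protein, at -1.01 (-0.76) and Esam, dim in KO control, with a bound of -1.20 (-0.71), all named after their values were seen. Kdr was also 2.38-fold lower in WT Ang II than in WT control. In that comparison 5 genes of the list lay above 0 and 7 below (median -0.06). Of them, 2 were at least 2-fold lower, where 0.999% of all genes were, and none was at least 2-fold higher. Vwf stood at -0.15 for KO over WT with Ang II and at 0.14 without, Podxl at -0.67 and -0.88, Erg at -0.16 and -0.24, and Aqp1 at 0.28 and 0.24.

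The white adipocyte list had 7 of 8 genes with a probe and 3 well above background. Adipoq, the adipocyte hormone, had 12.5 in KO Ang II, 7.35 in KO control, 34.9 in WT Ang II and 46.0 in WT control, and Fabp4, a fatty acid carrier, had 2.43, 2.65, 16.8 and 24.5 in that order. Together with Retn they were lower in KO on the arrays with and without Ang II and highest in WT control, like Lyve1 and Reln. All 3 were dim in KO control, and Fabp4 also in KO Ang II, so there they could come out only as lower. At least 2-fold lower were 3 of 3 without Ang II and 2 of 3 with it, where 4.06% and 5.21% of all genes were. The summed scaled signal of the 3 genes was 0.56 in KO Ang II, 0.37 in KO control, 1.197 in WT Ang II and 1.86 in WT control. Of the fibroblast genes, 9 of 10 with a probe were measured, with medians of -0.63 with Ang II and -0.39 without and a summed scaled signal of 376.8 in KO Ang II, 411.3 in KO control, 683.1 in WT Ang II and 654.7 in WT control. All 8 smooth muscle genes were measured, with a summed scaled signal of 194.5 in KO Ang II, 174.8 in KO control, 124.7 in WT Ang II and 139.7 in WT control. Of 10 lymphocyte and lymph node genes with a probe, 3 were well above background (Cd3d, Ptprc and Cxcl13). Their summed scaled signal was 37.0 in KO Ang II, 60.1 in KO control, 26.6 in WT Ang II and 28.9 in WT control, and the B cell genes Cd79b and Cr2 were not well above background on any array. Of 6 mesothelial genes with a probe, 2 were measured. Their sum was 0.28 in KO Ang II, 0.31 in KO control, 0.36 in WT Ang II and 0.28 in WT control. None of the genes in these lists passed the fit for genotype or Ang II.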

How the data were processed

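Cy3-labelled cRNA made from total RNA (per the labels' protocols) was hybridised to 4 arrays. The authors deposited scanner output: its processed signal is an intensity corrected for background and spatial trend inside each array (per the file headers), with no normalization across arrays. Flags of 0 or 1 (per the file headers) mark spots. Agilent Feature Extraction is given as 12.1.1.1 by the submitters' processing notes but as 10.7.1.1 by the headers. A second deposited table, the authors' own, holds log2 values that match the log2 processed signal, shifted by 1 constant per array, within 0.01 for 98.3% to 98.4% of probes. Its medians were 2.11 in KO Ang II, 2.27 in KO control, 2.22 in WT Ang II and 2.29 in WT control, and the reason for the constants is unknown.

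Outlier spots (301 to 372 per array) were left out, spots of a probe averaged, and 4 probes with no spot left dropped. No spot was saturated. Accessions, without versions, named 21107 probes through a GRCr8 gene table. A gene was read by the probe with the highest mean log2 signal among those well above background on some array. A probe with several spots counted as well above background where at least 50% of them did. The fit used limma 3.58.1 in R 4.3.3, with 1 residual degree of freedom and 3.13 prior ones. Python 3.11.15, numpy 2.4.6, pandas 2.3.3 and matplotlib 3.10.9 served the other steps. The fit and the 2-fold rule were tested on simulated scaled values. The simulation held no dim probes, so bounds were not tested. Members and lists were chosen with earlier results of these data known. Genes named from lists other than the members' partners and the specification genes were up to 4 with the highest mean signal, and for each member the 3 nearest genes were named, except 1 that is not reported here. The files hold no mean spot signal, so normexp used the median. Precision is limited by having 1 array per group.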

Additional observations from a re-analysis of the deposited data

Results flagged for a closer look

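Single arrays of Prox1 and Pdpn, the members measured on all 4 arrays, differed in the sign of the same contrast. For Ang II, Prox1 stood at -0.069 in KO and at 0.43 in WT. Pdpn stood at -0.52 in KO and at 0.22 in WT. For KO over WT, Pdpn stood at -0.31 with Ang II and at 0.43 without. These differences were not tested, each rests on 1 array per group, and the value of Prox1 in KO turned to 0.03 with normexp. The second Pdpn probe gave -0.40 for Ang II in KO and -0.55 in WT, and 0.55 for KO over WT with Ang II and 0.39 without, so its signs did not differ between groups.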

How the results depend on the processing

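No paired analysis was possible because each group has 1 array, and none could be left out for the same reason. Normexp with an offset of 50 shrinks ratios of dim probes by construction: members at least 2-fold apart numbered 1 for KO control over WT control (Reln, main 4), 1 for KO Ang II over WT Ang II (Prox1, main 2), 0 for Ang II in WT (main 3) and 0 in KO (main 1). The 2-fold counts over all genes dropped with it to 89 lower and 25 higher, 137 and 18, 8 and 29, and 4 and 0 in that order, from 389 and 280, 502 and 188, 98 and 198, and 130 and 41. For Ang II in KO the count of members was 0 where a gene's probes were averaged, and 2 with no filter on dim probes, and quantile normalization gave 102 lower and 55 higher genes there. With no filter the median of all genes moved to 0.17 for KO control over WT control and to -0.10 for Ang II in KO. The deposited value table was the only alternative in which the fit called members for genotype: 2, Lyve1 and Reln, each at an adjusted p of 0.0497 in limma, among 8 genes. Both entered with dim KO values as read, so these p-values are not read as a test. The cause was not tested. By the looser flag of a positive and significant signal, 5 members were read in KO control (main 3) and 5 in KO Ang II (main 2). Lyve1 and Reln were below 0 for KO over WT and for Ang II in WT, and Ccl21 for KO control over WT control and for Ang II in WT, under every alternative run. A gene dim on 1 side could give only 1 sign, except with no filter on dim probes. The constant sign is thus no check for KO over WT, nor for Ccl21 with Ang II in WT. For Ang II in WT, Lyve1 and Reln were measured on both arrays. Across the alternatives the log2 values for KO control over WT control ran from -3.25 to -0.77 for Lyve1, from -5.04 to -1.27 for Reln and from -4.37 to -0.61 for Ccl21, and the ratio of Prox1 from -0.66 to -0.48. No result at least 2-fold in size changed sign under any alternative, which is a check only where both arrays were well above background or no filter was used.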
